A study of Mus musculus with 2 samples.

Results

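Regulated exocytosis machinery is the set of proteins that stores hormone in vesicles, docks and fuses them on a calcium signal and takes the membrane back. It was followed here through 40 genes chosen by name, of the 16457 annotated genes with at least 1 read in mouse adrenal gland. By role they are 8 SNARE genes, 8 synaptotagmins and C2-domain relatives (Doc2b and Rph3a), 6 clamp and priming factors, 5 Rab GTPases, 7 vesicle membrane proteins, 3 genes of SNARE disassembly and 3 of membrane retrieval. RNA of adrenal glands from male mice, 2 months of age, was read by a long-read method in which a read is meant to span a whole transcript. The mice were B6CASTF1/J, an F1 hybrid of the B6 and CAST strains, with no treatment or transgene in the labels. The 2 libraries, replicates 1 and 2, form 1 group, so no contrast between conditions exists. The biosample labels number the animals 03 and 04, while both library descriptions say 03 and give 1 donor, so the difference between libraries may be technical. P-values between them cover counting error only, since 1 library a side gives no estimate of spread.

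In exocytosis, a vesicle SNARE of the VAMP family pairs with a syntaxin and a SNAP-25 family protein on the plasma membrane, and the assembled bundle draws the membranes together. Several synaptotagmins sense the calcium that triggers fusion, complexins clamp the bundle, and CAPS and Munc13 proteins prime the vesicle. NSF and the SNAP adaptors then take the SNAREs apart, and clathrin and dynamin retrieve the membrane. In the adrenal gland this route is best known from the chromaffin cells of the medulla, which release catecholamines, while the steroid hormones of the surrounding cortex are not stored in vesicles.

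Replicate 1 held 800029 reads on annotated genes and replicate 2 held 638310. Levels are CPM, the reads of a gene per 1000000 annotated-gene reads, with each read counted as 1 molecule and no division by length. The libraries sampled short and long transcripts differently, as given below. Levels are compared between genes and roles without a correction for this, and its effect on them was not tested. Where no read was seen, as many as 3 may have been missed, which is 3.75 CPM in replicate 1 but 4.70 CPM in the shallower replicate 2, and all limits and intervals cover counting error only. The tissue label fitted its markers: all 12 chromaffin genes were read, at 1.36% and 1.47% of reads, and all 6 cortex genes, at 6.70% and 7.02%. Of 8 markers of other neurons, 5 were at 0 in both libraries, namely Slc17a6, Slc17a7, Gad2, Chat and Slc18a3. The rest were Rbfox3 with 10 and 11 reads, Gad1 with 6 and 4 and Tubb3 with 3 and 10, and the 8 summed to 19 and 25 reads. Of 7 mast cell and platelet markers, Kit and Ppbp were at 0, Pf4 had the most with 9 and 3 reads, and the 7 summed to 16 and 7 reads. In such bulk tissue, fewer cells of a type and less RNA per cell cannot be told apart.

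Known splice choices of this machinery include the exon 5 pair of Snap25 and the small inserts of the clathrin light chains, and their sequences are given because the reads below distinguish them. Snap25 (chr2:136713453-136782428, plus strand, build mm10) encodes the plasma membrane SNARE that botulinum toxins cut. Its exons 5a (chr2:136769743-136769860) and 5b (chr2:136770057-136770174) are both coding, have 118 bases each and lie 196 bases apart. A transcript carries one or the other. As background, the 5a protein is known from chromaffin cells and the young brain, and the 5b protein from the adult brain. Capitals mark the 31 positions at which the exons differ. In frame, 9 of the 38 complete codons encode another residue.
Snap25 exon 5a: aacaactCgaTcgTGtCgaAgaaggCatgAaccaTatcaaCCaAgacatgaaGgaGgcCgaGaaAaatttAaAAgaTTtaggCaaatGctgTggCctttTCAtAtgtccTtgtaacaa
Snap25 exon 5b: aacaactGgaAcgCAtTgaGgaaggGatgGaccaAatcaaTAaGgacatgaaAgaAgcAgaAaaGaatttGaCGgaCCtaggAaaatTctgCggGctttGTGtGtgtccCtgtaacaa
All 29 informative reads of replicate 1 and all 20 of replicate 2 held exon 5a. The share was 100% in each library, with Wilson 95% lower bounds of 88.3% and 83.9%, and a lower bound of 92.7% over the 49 reads together. No read held exon 5b, which allows a share of up to 7.27% by the same interval, or 6.12% by the rule of 3 missed reads. Both libraries therefore gave the 5a form alone at this depth.

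The clathrin light chains coat vesicles that carry membrane back after fusion, and each gene has small coding exons that neurons are known to include. Clta (chr4:44004452-44032846, plus strand) has 2, of 54 bases (chr4:44030215-44030268) and 36 bases (chr4:44031400-44031435). Cltb (chr13:54592401-54611344, minus strand) has 1, of 54 bases (chr13:54597026-54597079). Each length is a multiple of 3. The 54-base exons of the genes have the same base at 37 of 54 positions, and no base is capitalised here.
Clta alternative exon of 54 bases: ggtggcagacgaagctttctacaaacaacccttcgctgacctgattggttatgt
Clta alternative exon of 36 bases: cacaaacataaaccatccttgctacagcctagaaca
Cltb alternative exon of 54 bases: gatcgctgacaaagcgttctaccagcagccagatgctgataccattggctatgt
Of the reads that spanned these places, 2 of 81 held an alternative Clta exon in replicate 1 and 0 of 63 in replicate 2. Both were the 36-base exon. The pooled share was 1.39% (Wilson 95% interval 0.382 to 4.92%), with a two-sided Fisher's exact p of 0.504 between the libraries. The Cltb exon was in 0 of 127 reads in replicate 1 and 1 of 109 in replicate 2, or 0.424% in all (0.0748 to 2.36%), with a Fisher's exact p of 0.462. The reads of both genes were thus almost all of the insert-free form, in both libraries.

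Across the machinery, 36 of the 40 genes had a read in replicate 1, 38 in replicate 2 and 34 in both. They took 1247 reads (0.156%, Wilson 95% interval 0.147 to 0.165%) and 1089 reads (0.171%, 0.161 to 0.181%), a mean of 0.163 ± 0.0104% (SD, n = 2). Of the 40, 17 reached 20 reads in sum and held 92.6% of all 2336 reads, and the 5 most read (Napa, Cltb, Nsf, Rab3a and Clta) held 55.9%. The roles were unequal. SNARE disassembly genes summed to 491 ± 79.0 CPM (SD, n = 2), SNAREs to 399.9 ± 19.3, membrane retrieval to 326 ± 14.0, Rabs to 171 ± 5.64 and vesicle membrane proteins to 167 ± 11.8. Synaptotagmins and their relatives summed to 58.7 ± 5.42 CPM and clamp and priming factors to 18.0 ± 7.78 CPM, the lowest sums of the 7 roles in each library.

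**Figure D1:**
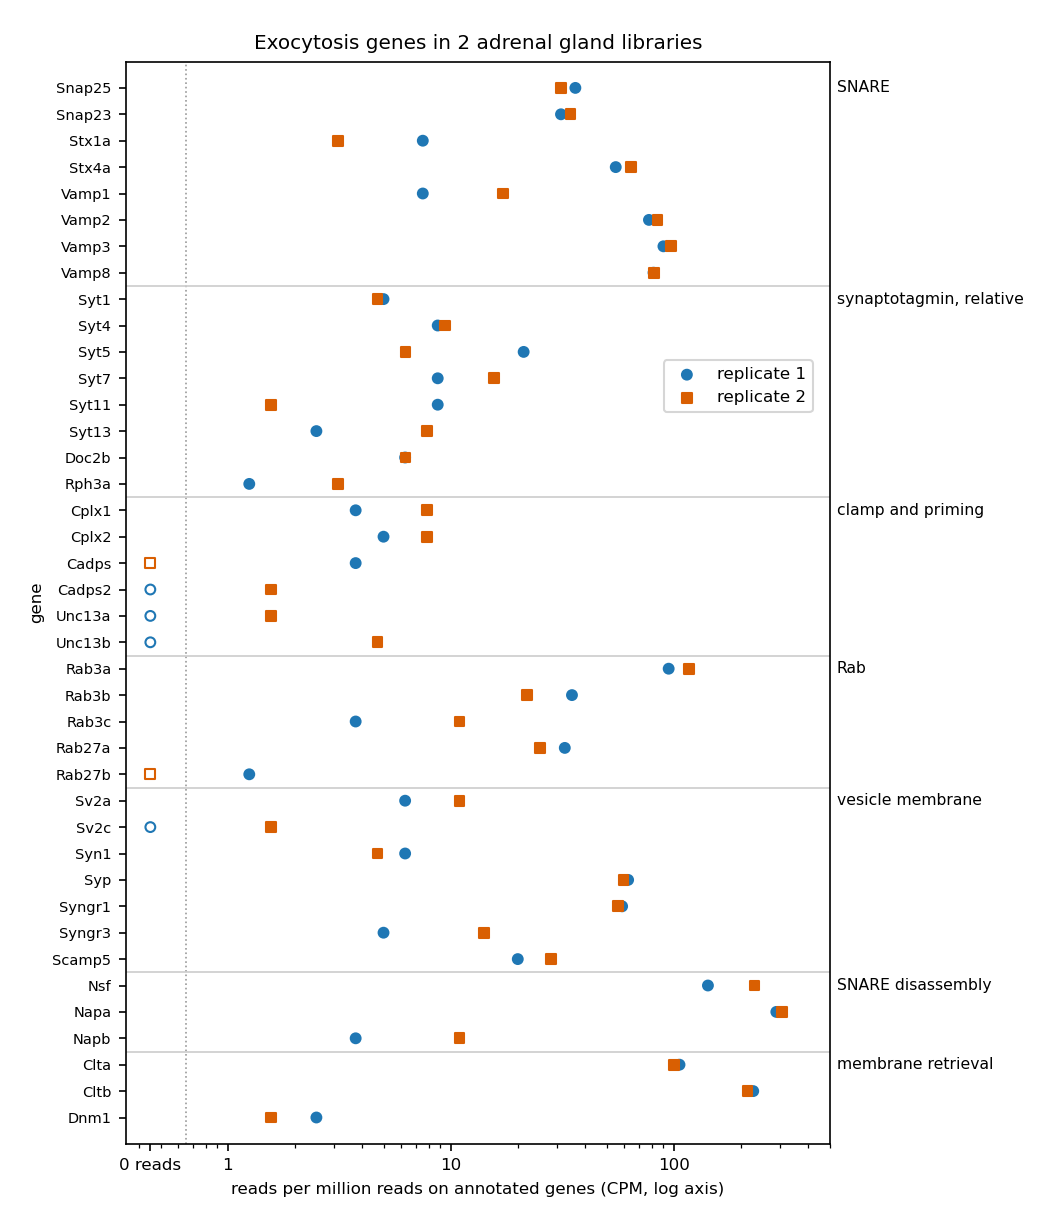
CPM of each of the 40 genes in replicate 1 (circles) and replicate 2 (squares) on a log axis, grouped by role, with open symbols for 0 reads. Napa, Cltb and Nsf stand at the right, while the 6 clamp and priming factors all lie below 10 CPM in both libraries.

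Among the SNAREs of the plasma membrane, Snap25 had 29 reads in replicate 1 and 20 in replicate 2 (36.2 and 31.3 CPM). Its relative Snap23, which serves fusion in most cell types, had 25 and 22 reads (31.2 and 34.5 CPM). The genes were near equal: Snap25 made 51.0% of their joint reads (41.2 to 60.8%). Stx4a, a syntaxin of many tissues, had 44 and 41 reads (55.0 and 64.2 CPM), whereas Stx1a, the neuronal and chromaffin syntaxin, had 6 and 2. Stx1a thus made 8.60% of the pair's reads (4.42 to 16.1%), and in each library Stx4a lay far above it.

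The vesicle SNAREs were led by 3 genes at like levels. Vamp3, or cellubrevin, had 72 and 62 reads (93.6 ± 5.05 CPM, SD, n = 2), Vamp8, known from endosomes and secretory granules, had 65 and 52 (81.2 and 81.5 CPM), and Vamp2, the synaptic vesicle and chromaffin granule form, had 62 and 54 (77.5 and 84.6 CPM). Vamp2 made 46.4% of the reads it shared with Vamp3 (40.3 to 52.6%), and 49.8% of those with Vamp8 (43.4 to 56.2%), so neither pair was separated by its counting error. Vamp1, a close relative of Vamp2, was lower, with 6 and 11 reads.

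Each well-read SNARE had 1 leading transcript, and all these leads were annotated as protein-coding. Snap25-202, the 5a transcript, took 48 of 49 reads (98.0%), and Vamp3-201 took 95.5%. Vamp8-201 took 59 of 65 and 48 of 52 reads (91.5% in all), with a further 5.13% on Vamp8-202. Lower leads were those of Snap23-202 (18 of 25 and 19 of 22 reads, 78.7%), Vamp2-201 (47 of 62 and 40 of 54, 75.0%) and Stx4a-201 (32 of 44 and 31 of 41, 74.1%). A second group of Vamp2 reads passed 10%: single-exon reads that match the end of the gene took 12.1%, 8 reads in replicate 1 and 6 in replicate 2. They were classed as incomplete matches to an annotated transcript and hold no splice junction, so whether their molecules were spliced was not tested. Snap23 had 4 annotated internal exons that were nearly always skipped, of 157, 100, 33 and 93 bases. Only the 100-base exon was held at all, in 2 of 23 reads of replicate 1 and 0 of 22 of replicate 2.

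Synaptotagmins and their relatives, most of which bind calcium, were sparse. Syt5 alone reached 20 reads, with 17 in replicate 1 and 4 in replicate 2 (21.2 and 6.27 CPM). Syt7, a high-affinity sensor of dense-core vesicles, had 7 and 10 reads, Syt4 had 7 and 6, and Syt1, the fast sensor of synapses and chromaffin cells, had 4 and 3. Syt11, an isoform that does not bind calcium, had 7 and 1, Syt13 had 2 and 5, the C2-domain sensor Doc2b had 5 and 4, and Rph3a, a Rab effector with C2 domains, had 1 and 2. Of these 8 genes, Syt5 had the widest gap between libraries in reads, and Syt11 the widest in ratio, on 8 reads.

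Syt5 (chr7:4539765-4547541, minus strand) was also, among the 17 genes with at least 20 reads, the one with a spliced new form ahead of its annotated transcripts. That form took 11 of 17 reads in replicate 1 and 3 of 4 in replicate 2 (66.7% in all), against 3 and 1 for Syt5-201. On annotated models alone the gene had 5 reads, and its mean was 4.14 CPM of such reads in place of 13.8 CPM. It has 9 exons and 8 introns, all of them annotated: the 7 introns of Syt5-201 and, upstream, the intron between exon ends 4546335 and 4547313, annotated in Syt5-202. Syt5-201 begins its coding sequence at 4546311, inside the exon that follows this intron, so the added exon lies upstream of the start codon of Syt5-201.

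Clamp and priming factors had the fewest reads. Cplx1, a complexin of neurons and endocrine cells, had 3 and 5 reads and Cplx2 had 4 and 5. The CAPS gene Cadps had 3 and 0, Cadps2 had 0 and 1, and the Munc13 genes Unc13a and Unc13b had 0 and 1, and 0 and 3. None of the last 4 exceeded, in either library, the 3 reads that a count of 0 allows, so differences among them were not detectable at this depth. All 9 Cplx2 reads were single-exon reads recorded in its last exon, and none showed a splice junction.

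Of the Rabs, small GTPases that tether secretory vesicles, Rab3a led with 76 and 75 reads (95.0 and 117 CPM). Rab3b had 28 and 14 (35.0 and 21.9 CPM), Rab27a, which recruits granules to the membrane, had 26 and 16 (32.5 and 25.1 CPM), Rab3c had 3 and 7, and Rab27b had 1 and 0. Rab3a made 78.2% of the joint reads of Rab3a and Rab3b (71.9 to 83.5%), with 73.1% in replicate 1 and 84.3% in replicate 2. Rab27a made 42 of the 43 reads of the Rab27 pair.

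Rab3a (chr8:70754679-70758677, plus strand) had the lowest leading share of the 3 well-read Rabs. Rab3a-201 took 45 of 76 and 51 of 75 reads (63.6%). A new 5-exon form took 11 and 16 reads (17.9%), and single-exon reads took 13 and 5 (11.9%). The new form differs from Rab3a-201 in 1 splice site, where its first exon ends 6 bases further on, at 70754869 instead of 70754863. The closest annotated end, of Rab3a-204, is at 70754868, 1 base away, and the coding sequence starts only in the second exon, at 70755856. Which of these ends the molecules had was not tested. Rab3b-202 took 81.0% of Rab3b reads and Rab27a-201 took 76.2% of Rab27a reads. Rab27a also had a new form with 3 reads in each library (14.3%), whose non-coding first exon ends 38 bases further on than that of Rab27a-201.

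Vesicle membrane proteins were led by 2 genes, Syp and Syngr1, with Scamp5 lower and the only other one to reach 20 reads in sum. Synaptophysin (Syp) had 50 and 38 reads (62.5 and 59.5 CPM), synaptogyrin 1 (Syngr1) had 47 and 36 (58.7 and 56.4 CPM), and Scamp5, a carrier membrane protein of secretory cells, had 16 and 18 (20.0 and 28.2 CPM). Syngr3 had 4 and 9 reads, Sv2a, a transporter-like vesicle glycoprotein, had 5 and 7, synapsin 1 (Syn1) had 5 and 3 and Sv2c had 0 and 1. Scamp5 rests on its single-exon reads: without the class of no compatible splice pattern it had 16 reads in sum, under the 20 required, and its mean moved from 24.1 to 12.2 CPM. Syp and Syngr1 could not be separated, with 51.5% of joint reads on Syp (44.0 to 58.8%), and Syngr1 made 86.5% of the synaptogyrin reads (78.2 to 91.9%).

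Syngr1 (chr15:80091334-80119501, plus strand) was the one member of 50 reads or more with 2 annotated transcripts above 10%. Syngr1-202 took 28 of 47 and 16 of 36 reads (53.0%), Syngr1-201 took 12 and 10 (26.5%), and single-exon reads took 5 and 9 (16.9%). The annotated transcripts share 2 of 3 introns and part at the last exon, of 276 bases in Syngr1-202 and 3647 bases in Syngr1-201, so they end in different coding sequence. Syp-201 took 79.5% of Syp reads. Scamp5 was led by single-exon reads (11 of 16 and 7 of 18, 52.9%), ahead of Scamp5-201 with 3 and 7 reads.

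As a sum, the genes that take SNAREs apart were the most read of the roles, through Napa and Nsf. Napa (chr7:16098458-16117975, plus strand), which encodes alpha-SNAP, the adaptor that brings NSF to spent SNARE bundles, had 231 and 195 reads (289 and 305 CPM). It ranked 550 among all 16457 detected genes by mean CPM. Nsf (chr11:103821782-103954056, minus strand), the ATPase itself, had 114 and 147 reads (142 and 230.3 CPM), and Napb, the beta-SNAP gene of brain, had 3 and 7. Napa made 97.7% of the joint reads of Napa and Napb (95.8 to 98.7%). Napa-201 took 85.9% of its gene's reads and Nsf-202 took 85.8%. A 48-base annotated Nsf exon was held by 1 of 235 reads.

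Of the retrieval genes, Cltb had 182 and 137 reads (227 and 215 CPM), Clta had 85 and 64 (106 and 100.3 CPM) and Dnm1, the dynamin of synapses, had 2 and 1. Clta made 31.8% of light chain reads in each library (27.8 to 36.2% over both), with all read classes counted. This share rests on the class of no compatible splice pattern, which held 83 reads of Cltb but 2 of Clta. Without that class the share of Clta is higher. The mean of Cltb then moved from 221.1 to 171.7 CPM, below that of Nsf at 188.6 CPM. Clta-206 took 70 of 85 and 58 of 64 reads (85.9%), and Clta-201, which ends its first exon 6 coding bases earlier, took 8 and 3 (7.38%). Cltb-202 took 121 of 182 and 108 of 137 reads (71.8%). The rest of Cltb was nearly all single-exon reads, 55 in replicate 1 and 28 in replicate 2 (26.0%), recorded within its last exon.

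**Figure D2:**
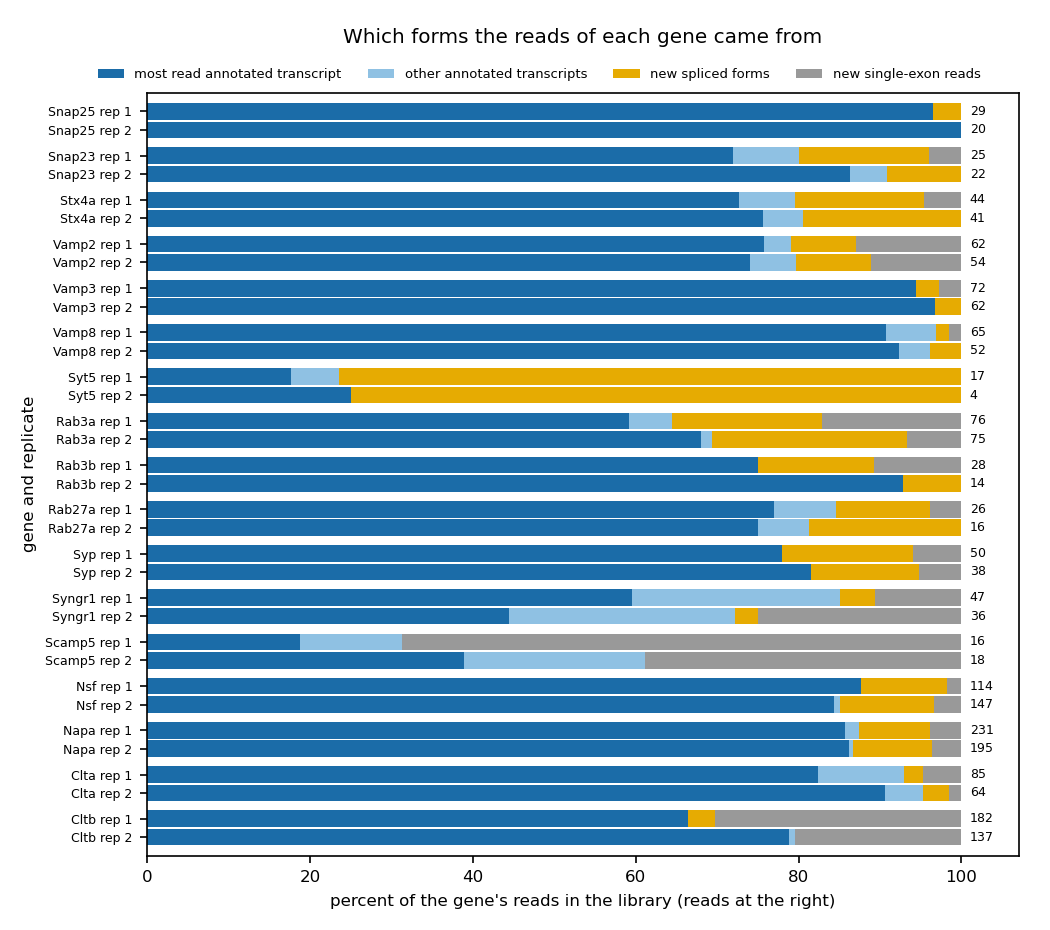
Share of each gene's reads, in percent, on its most read annotated transcript, other annotated transcripts, new spliced forms and new single-exon reads, with 1 bar per library and the gene's reads at the right. The new forms include incomplete matches to annotated transcripts. Syt5 is mostly new spliced reads, Scamp5 has the largest single-exon block in both libraries, Cltb comes next in replicate 1 and Syngr1 in replicate 2, and Snap25 is almost wholly 1 annotated transcript.

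Over the 17 genes with at least 20 reads, the leading form held between 52.9 and 98.0% of the gene's reads. The median was 78.7%, beside 75.1% over all 8063 genes with as many reads. New single-exon reads of a gene were pooled and counted as 1 form here, and the lowest value, 52.9%, is that pool in Scamp5. No form reached 90% in 14 of the 17 (82.4%, beside 78.0% of all 8063). Annotated forms led in 15, all protein-coding, and 36 of the 91 annotated transcripts of the 17 genes were read. New spliced forms of the 40 genes numbered 122, of which 89 had a single read and 23 were seen in both libraries. This counts every spliced model that is not itself an annotated transcript, including incomplete matches to annotated ones, so it is not a count of new splicing. Only 4 of the 122 had at least 3 reads in each library, those of Syt5, Rab3a and Rab27a above and an incomplete form of Nsf with 3 and 3 reads.

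Reads without a compatible splice pattern (TALON class genomic) made 9.86% and 7.07% of the reads of the 40 genes, against 4.74% and 3.35% of all annotated-gene reads. Cltb supplied 83 of these 200 reads, and without it the shares were 6.38% and 5.15%. Incomplete splice matches ran the other way, at 5.13% and 4.96% against 8.41% and 8.32%. These differences from all genes were not tested.

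Most internal exons of the machinery were either kept or skipped throughout. Of 91 annotated internal exons with at least 20 spanning reads in sum, over 16 genes, 81 were held by more than 95% of reads, 76 of them by all, and 10 by fewer than 5%. None lay between 5% and 95%. As shares these are 89.0%, 11.0% and 0%, beside 91.4%, 4.46% and 4.13% of the 62505 such exons of all genes, a difference that was not tested and in which exons of a gene share reads. The 10 skipped exons were Snap25 exon 5b, the 4 of Snap23, the 48-base Nsf exon, a 149-base non-coding exon of Rab27a and the 3 clathrin light chain exons. Lowest among the included ones was a 99-base Stx4a exon, in 66 of 69 reads (95.7%, 88.0 to 98.5%).

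**Figure D3:**
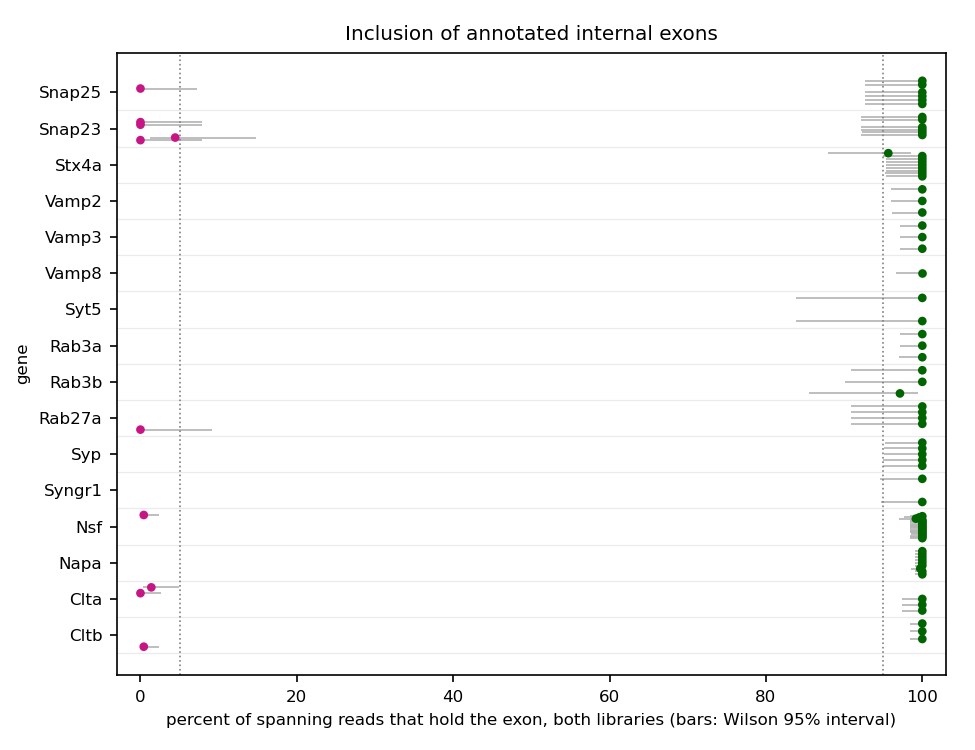
Percent of spanning reads that hold each annotated internal exon, both libraries pooled, with Wilson 95% intervals and dotted lines at 5 and 95%. The points form a column at or near 100% (81 exons) and a column at or near 0% (10 exons), with nothing in between.

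Between the libraries, no gene of the machinery was called. A call needed an adjusted p under 0.05 in a two-sided exact binomial test, with Benjamini-Hochberg adjustment over 8063 genes, and a 2-fold ratio. By this rule 0 of 17 were called, against 3.41% of all genes. At adjusted p alone 1 of 17 passed (11.1% of all genes), and at an unadjusted p under 0.05, 2 of 17 (21.7%). Their median log2 ratio of replicate 2 over replicate 1 was -0.09, beside 0.01 for all genes. Of the 17, 16 lay within 2-fold, as did 93.4% of all genes, and for 12 the whole 95% interval did.

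Nsf and Syt5 were the genes at an unadjusted p under 0.05. Nsf was higher in replicate 2, by 0.59 on the log2 scale (95% interval 0.23 to 0.96, exact binomial adjusted p = 0.0130, Benjamini-Hochberg). Syt5 was lower in replicate 2, with a log2 ratio of -1.70 (-3.89 to -0.24, exact binomial p = 0.0148, adjusted p = 0.104). Replicate 2 had relatively more reads of long transcripts, with median log2 ratios of -0.62 in the shortest of 10 length bins and 0.15 in the longest. With that trend removed, Nsf stood at 0.40 with an exact binomial adjusted p of 0.224, and 0 of 17 passed adjusted p alone (5.90% of all genes), 4 passed unadjusted p (15.7%) and 0 were called (1.67%). Adipocyte markers also differed between the libraries, at 0.532% and 0.206% of reads with 4 of 5 called lower in replicate 2. Of 11 chromaffin markers tested 0 were called, but 4 passed adjusted p alone in the exact binomial test (11.1% of all genes). Of 6 cortex markers 0 were called and 6 passed adjusted p alone. The part of these cell types in the ratios of the 17 genes was not tested.

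**Figure D4:**
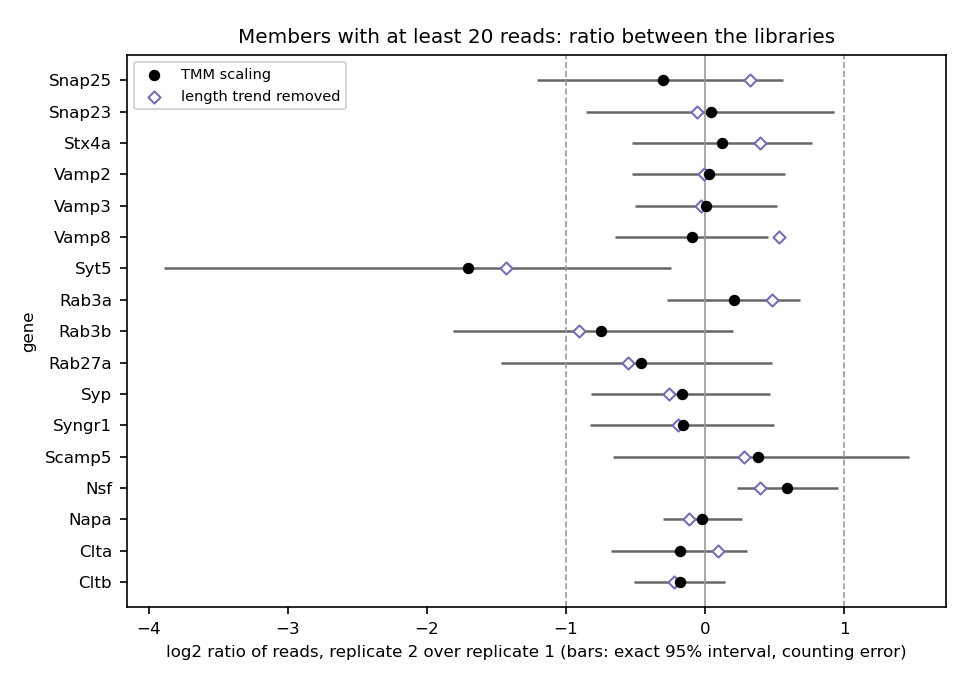
Log2 ratio of reads, replicate 2 over replicate 1, for the 17 genes with at least 20 reads, with exact 95% intervals (bars) and the value after removal of the length trend (diamonds), and dashed lines at a 2-fold ratio. Syt5 alone lies beyond 2-fold, with the widest interval. The intervals of Syt5 (-3.89 to -0.24) and Nsf (0.23 to 0.96) leave out 0.

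The shares of leading transcripts were also compared between the libraries. No interval of the differences was computed, so a gene that was not called is not shown to have equal shares. Of the 13 genes that reached 20 reads in both libraries separately, 0 were called by Fisher's exact test at an adjusted p under 0.05 and a 10-point difference (0.394% of 5334 genes), and 0 passed adjusted p alone (0.544%). At an unadjusted p under 0.05 there was 1 (6.88% of all genes): Cltb-202 took 66.5% of Cltb reads in replicate 1 and 78.8% in replicate 2 (Fisher's exact p = 0.0170, adjusted p = 0.523). The widest difference was that of Syngr1-202, lower by 15.1 points in replicate 2 (Fisher's exact p = 0.190, adjusted p = 0.969).

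Of the 23 genes under 20 reads, 16 still had at least 1 read on an annotated transcript. Among them were 5 of 8 reads of Stx1a, 11 of 17 of Vamp1, 10 of 13 of Syt4, 12 of 13 of Syngr3 and 8 of 12 of Sv2a. The 7 with none were Rph3a, Cplx2, Cadps, Cadps2, Unc13a, Rab27b and Dnm1. An annotated transcript need not be protein-coding. Stx1a-204, annotated as a target of nonsense-mediated decay, had 2 reads in replicate 1 and 1 in replicate 2, and protein-coding Stx1a-201 had 2 and 0. Napb-202, of the same decay type, had 1 and 2 reads, and protein-coding Napb-201 had 1 and 1. With 3 reads or fewer in 8 of the 23, their transcripts are given as reads only.

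Among 77 further genes of the pathway, 69 had a read and 44 reached 20 reads. The 8 highest were a mixed group, with a tie at the last place. Ap2m1, of the clathrin adaptor AP-2, stood at 231 ± 65.3 CPM (SD, n = 2), Snap47 at 198 ± 14.8, Rabac1 at 196 ± 9.14, the endosomal syntaxin Stx7 at 187 ± 3.23, and the AP-2 subunit Ap2a1 at 178 ± 32.2. Dnm2, the dynamin of most tissues, stood at 169.6 ± 8.29 CPM, Scamp2 at 164 ± 22.2, and Syt12, a synaptotagmin that does not bind calcium, and the synaptophysin relative Sypl both at 160.4 ± 23.5. None of the 44 was called between the libraries (3.41% of all genes), 1 passed adjusted p alone (11.1%) and 2 an unadjusted p under 0.05 (21.7%) in the exact binomial test. Syt12 was thus read more than any synaptotagmin among the 40 genes, and Dnm2 more than Dnm1, in each library.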

How the data were processed

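The authors deposited, per library, whole-number counts of reads per transcript model and the models' exons. Per the deposited notes, reads were placed on build mm10 with GENCODE M21, and models were written by TALON. The aligner, platform, versions and strand setting were not given in the sources used here. One genome was used for an F1 hybrid.

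Members were matched by gene name and read counts summed per gene over all TALON classes, without spike-ins. New spliced models were matched between libraries by intron chain, and new single-exon reads of a gene were pooled, since their recorded extents are unreliable. CPM were computed from annotated-gene reads (800029 and 638310). Log2 ratios used TMM scaling (edgeR 4.0.16, R 4.3.3) with 1 CPM added. The edgeR quasi-likelihood test could not be fitted to 1 library a side, so exact binomial and Fisher's exact tests were run in scipy 1.17.1 over all genes with at least 20 reads and checked on simulated data. Exon inclusion is the share of reads that hold an exon among those that hold or skip it. Figures used matplotlib 3.10.9.

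The 40 genes, the lists and the tests were chosen with earlier results of these data known. By the naming rule, every member is accounted for, forms of at least 10% are named for members with 50 reads or more, and of the other pathway genes the 8 of highest mean CPM and any called gene are named. Other genes or forms singled out were chosen after their values were seen. Alternatives changed scaling, read classes, read minimums, exon matching, transcript length and the libraries used.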

Additional observations from a re-analysis of the deposited data

Results flagged for a closer look

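Antisense loci lie outside the gene counts, and 19 of the 40 genes had antisense reads opposite them, in 2 cases above 3 reads in each library. The same share over all genes was not computed, so these counts are not read as a trait of the 40 genes. Opposite Cplx2 there were 25 antisense reads in replicate 1 and 14 in replicate 2, against 4 and 5 sense reads. Nearly all came from a single-exon model at chr13:54379512-54380267 (24 reads) in replicate 1 and an equivalent one with 14 reads in replicate 2, on the minus strand and within an annotated Cplx2 exon. The sense reads were recorded further downstream, from 54381305 on in replicate 1 and from 54382240 on in replicate 2. Recorded extents of single-exon reads are unreliable, so whether sense and antisense reads overlap was not tested. Opposite Rab3b there were 4 antisense reads in replicate 1 and 4 in replicate 2, against 28 and 14 sense reads, on a single-exon model of 492 bases. No source used here states the strand handling, so reads of a gene and of its antisense partner cannot be told apart with certainty.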

How the results depend on the processing

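With at least 50 reads required, 11 genes qualified in place of 17. With adjusted p alone, 1 gene (Nsf) differed between the libraries in place of 0. With annotated transcripts only, 1 gene had no transcript at 90% in place of 14, since new forms are then left out of the totals. Leaving out each replicate gave 17 to 18 genes (at least 10 reads in the other library), a share of reads of 0.156 to 0.171%, a Snap25 exon 5a share of 100%, a Clta inclusion of 0 to 2.47%, a Cltb inclusion of 0 to 0.917% and 13 to 14 genes with no transcript at 90%. In the other alternatives run, calls between the libraries, of levels and of leading transcripts, stayed at 0. Of 116 alternatives of single log2 ratios, 104 kept their sign and 12, of 8 genes, did not, none of them called. The 104 include the changed read minimums, which leave a gene's own ratio as it was, so its sign could not change there. With the length trend removed the reversed ratios were Snap25 0.32, Snap23 -0.054, Vamp2 -0.0097, Vamp3 -0.026, Vamp8 0.53 and Clta 0.093. With DESeq2 size factors they were Snap23 -0.010, Vamp2 -0.025 and Vamp3 -0.041. With library totals they were Vamp8 0.0038 and Napa 0.081, and with annotated models only Cltb 0.092. The cause was not tested. Library totals put the median of all genes at 0.11 and split 261 calls with 128 higher in replicate 2, while TMM split 275 with 85 and DESeq2 305 with 70. No paired analysis was possible because there is 1 group. At this depth, 12 of the 17 genes had a ratio whose whole 95% interval lay within 2-fold.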
